A study of Drosophila melanogaster with 24 samples.

Results

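The 40 genes described here mostly encode proteins of the synaptic vesicle cycle and of the active zone, the patch of presynaptic membrane where vesicles fuse. The neurexin and neuroligin genes and dlg1 were included as genes of synaptic adhesion and of the postsynaptic scaffold. The members were all peaks of the deposited count table that overlap the body of one of the 40 genes or the 1 kb on either side, with gene limits from the RefSeq Release 6 annotation. They numbered 151 of 11145 peaks and belonged to 37 genes. Vap33, the syntaxin gene Syx1A and comt, which encodes the NSF ATPase that takes SNARE complexes apart, had no peak in the table. 1 peak of Sytbeta was set apart because a library held no count there, and the other 150 were analysed together. None of them was lost to the filter on low counts. Coordinates are those of the file, for build dm6 as named in the submitters' processing notes. The gene table carries no strand, exon or UTR, so a peak is placed only relative to the ends of its gene. Of the 151 peaks, 33 covered an end of their gene, 100 lay inside it off the ends and 18 lay in the flanks. In 19 cases the peak also overlapped, or only overlapped, another annotated gene.

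Vesicles are docked and primed by scaffold proteins such as Bruchpilot, RIM and Unc-13, and fuse when SNARE proteins on the vesicle and on the plasma membrane zip together. Synaptotagmins such as Syt1 sense calcium and trigger that fusion, and complexin and tomosyn restrain it. Endocytic proteins such as endophilin and dynamin recover the membrane. Neurexin and neuroligins hold the sides of the synapse together. In the adult brain much of this machinery is shared by neurons of many kinds.

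Accessibility at these genes was read from ATAC-seq, in which a transposase cuts and tags open DNA, in brains of adult Drosophila melanogaster females. The series asks whether the supply of histone H3 or the identity of its subtypes, replicative H3.2 and replacement H3.3, matters more. The 4 genotypes were OreR (Oregon-R, a wild-type laboratory strain, also labelled H33WT) and the mutants H3.3S31A, H3.3H3.2 and H3.3null. As the names read, the first carries H3.3 with serine 31 exchanged for alanine, the second carries H3.2 instead of H3.3, and the last has no H3.3. Brains came from flies aged 1 or 10 days after eclosion, which gives 8 groups of 3 libraries, 24 in all. Per the labels' protocols 8 brains were dissected, but the labels do not say whether libraries come from separate flies, so p-values measure only the spread between these libraries. They name no control in the mutants' own stock, so effects of the histone genotype and of other differences between stocks cannot be told apart. In whole brains, a change in the share of a cell type and a change within cells cannot be told apart either.

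Libraries held 3021672 to 4890579 counts in peaks, and the 151 peaks took 1.36% to 1.47% of them while making up 1.35% of the peaks. Peaks overlapped all 6 neuronal marker genes, which held 4464 to 5219 CPM in sum (counts scaled to a common library size), and all 5 glial ones, at 747 to 915 CPM. Of the other lists, fat body genes held 55.9 to 91.1 CPM over 2 of 3 genes and photoreceptor genes 18.2 to 34.2 CPM over 1 of 2, while the 3 muscle genes and the hemocyte gene had no peak. At His3.3B, 1 of the 2 H3.3 genes, the peak at X 9154788 to 9155165 held 43 to 60 counts in the 6 H3.3null libraries and 153 to 201 in the 6 of OreR. The H3.3H3.2 libraries held 184 to 245 there and those of H3.3S31A 118 to 238, so the H3.3null libraries lay below all others at this peak. In H3.3null a His3.3A peak at 2L 5055623 to 5055921 was higher, with 165 to 272 counts against 64 to 113 in OreR (log2 fold change 1.05, adjusted p = 8.43e-06 at day 1, and 1.22, adjusted p = 4.25e-07 at day 10). The other His3.3A peak was not called at day 1 (-0.04, adjusted p = 0.865) and was lower at day 10 (-0.35, adjusted p = 0.0479). Of the remaining His3.3B peaks, one was lower (-0.35 and -0.45, adjusted p = 0.0103 and 0.000784) and the one at X 9155649 was not called (0.16 and 0.11, adjusted p = 0.211 and 0.396). None of these peaks was called in H3.3H3.2 or H3.3S31A.

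The peaks were spread unevenly over the genes. Snap25, which encodes the plasma membrane SNARE of that name, held 17, the scaffold gene CASK 13, and the active zone genes brp (Bruchpilot) and Rim 11 each, while 9 genes had a single peak. stnA and stnB, which share one locus and encode the stoned proteins of vesicle recycling, shared 4 peaks. By level, the highest peak was at cpx, the complexin gene, with a mean of 704 CPM over the 24 libraries at 3R 4279788 to 4282689. It was followed by the Snap25 peak at 3L 24132956 to 24137684 with 533 CPM and, at 429 CPM, by a further cpx peak at 3R 4291288 to 4293359. Over the 150 peaks the mean ranged from 17.2 to 704 CPM, with a median of 73.1 against 60.9 for all peaks of the table. CPM is not divided by peak length, and the widest peak spanned 4729 bp against a median of 500. When the highest peak of each gene was taken, 7 of these 36 were called in any mutant against OreR at either age. In the same 6 comparisons 35.3% of the 150 peaks and 38.7% of all peaks were called at least once. Of the 36, 15 covered a gene end.

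In H3.3null, 27 of the 150 peaks differed from OreR at day 1, or 18.0% against 24.7% of all peaks. There were 18 higher and 9 lower, where 14.1% and 10.6% of all peaks were. At day 10 there were 36, or 24% against 24.5%, with 21 higher and 15 lower beside 15.5% and 9.0% of all peaks. A peak was called when the adjusted p of edgeR's quasi-likelihood test, corrected over all 11145 peaks by the Benjamini-Hochberg method, was under 0.05. Errors of log2 fold changes are standard errors. H3.3H3.2 and H3.3S31A gave fewer calls than H3.3null, here as over the whole table. In H3.3H3.2, 8 peaks were called at day 1, or 5.33% against 11.1% of all peaks. Of these 5 were higher and 3 lower, beside 6.94% and 4.21% of all peaks. At day 10 there were 11, or 7.33% against 10.7%, with 5 higher and 6 lower beside 7.13% and 3.54%. In H3.3S31A, 9 peaks were called at day 1, or 6.0% against 10.5%, with 6 higher and 3 lower beside 6.24% and 4.27%. At day 10 there were 14, or 9.33% against 10.2%, with 8 higher and 6 lower beside 6.43% and 3.77%. The median log2 fold change of the 150 peaks lay between -0.05 and 0.03 in these 6 comparisons, against -0.01 to 0.00 for all peaks, and 56 to 84 of the 150 were above 0. The 6 comparisons share OreR libraries by age.

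**Figure D1:**
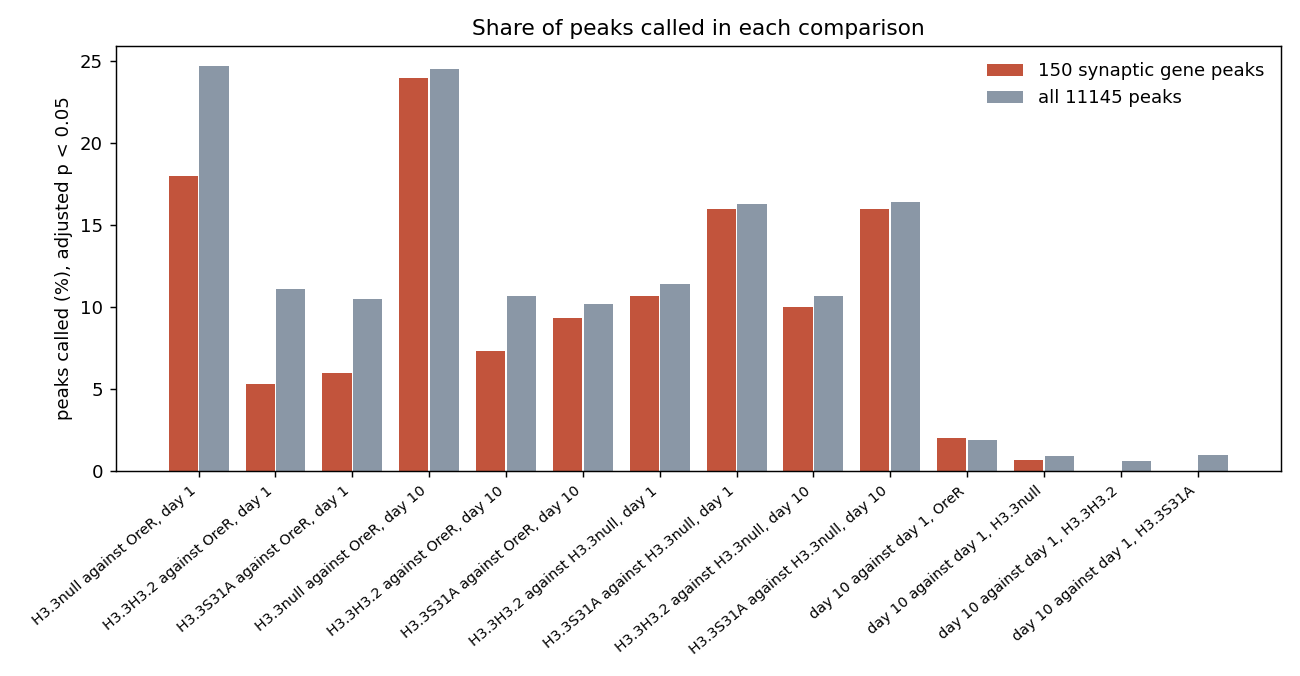
Share of peaks called in each comparison (percent, adjusted p under 0.05) for the 150 synaptic gene peaks and for all 11145 peaks of the table. The synaptic share is 18.0% against 24.7% in H3.3null at day 1, and 24% against 24.5% in H3.3null at day 10.

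In H3.3null, 17 peaks were called in the same direction at both ages, or 11.3% of the 150, against 15.5% of all peaks. They made up 63.0% of the synaptic calls at day 1 and 47.2% of those at day 10, where the shares over all peaks were 62.7% and 63.3%. H3.3H3.2 had 6 such peaks (4.0%, against 7.84% of all peaks) and H3.3S31A 8 (5.33%, against 7.44%). Of all peaks, 3 went in opposite directions at the different ages, all in H3.3null, and 0 of those were synaptic. Across the 6 comparisons 53 synaptic peaks of 22 genes were called at least once, or 35.3%, against 38.7% of all peaks, and 97 never. The 15 genes with peaks but no call were AP-2alpha, Csp, Liprin-alpha, Nlg1, Nlg2, Nlg3, Rab3, Rop, Syb, Synj, Sytalpha, dlg1, hig, lap and shi. Of the 33 peaks over an end of their gene, 6.06% were called in H3.3null at day 1 and 12.1% at day 10, beside 21.4% and 27.4% of the other 117. Of all 3287 peaks over any gene end, 15.3% and 16.3% were called in H3.3null, beside 28.7% and 27.9% of the others. H3.3H3.2 had 3.03% over ends beside 5.98% elsewhere at day 1, and 9.09% beside 6.84% at day 10, and H3.3S31A had 6.06% beside 5.98% and 9.09% beside 9.40%. The shares over ends in these mutants rest on 1 to 3 calls of 33. Over all peaks H3.3H3.2 had 5.45% beside 13.5% at day 1 and 5.60% beside 12.8% at day 10. H3.3S31A had 5.48% beside 12.6% and 4.35% beside 12.6%. None of these differences was tested. When each library of the compared groups was left out in turn, 11 of the 27 calls in H3.3null at day 1 and 16 of the 36 at day 10 held every time. H3.3H3.2 kept 4 of 8 and 5 of 11 in this way, and H3.3S31A kept 5 of 9 and 7 of 14. Of the calls that were lost at least once, 1 of 16 in H3.3null at day 1 and 6 of 20 at day 10 were lost without 1 library alone, and 0 of those in the other mutants. The rest were each lost without any one of at least 2 libraries. Where a call was lost in H3.3null, the median log2 fold change was still 93.0% of the full value at day 1 and 86.8% at day 10.

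**Figure D2:**
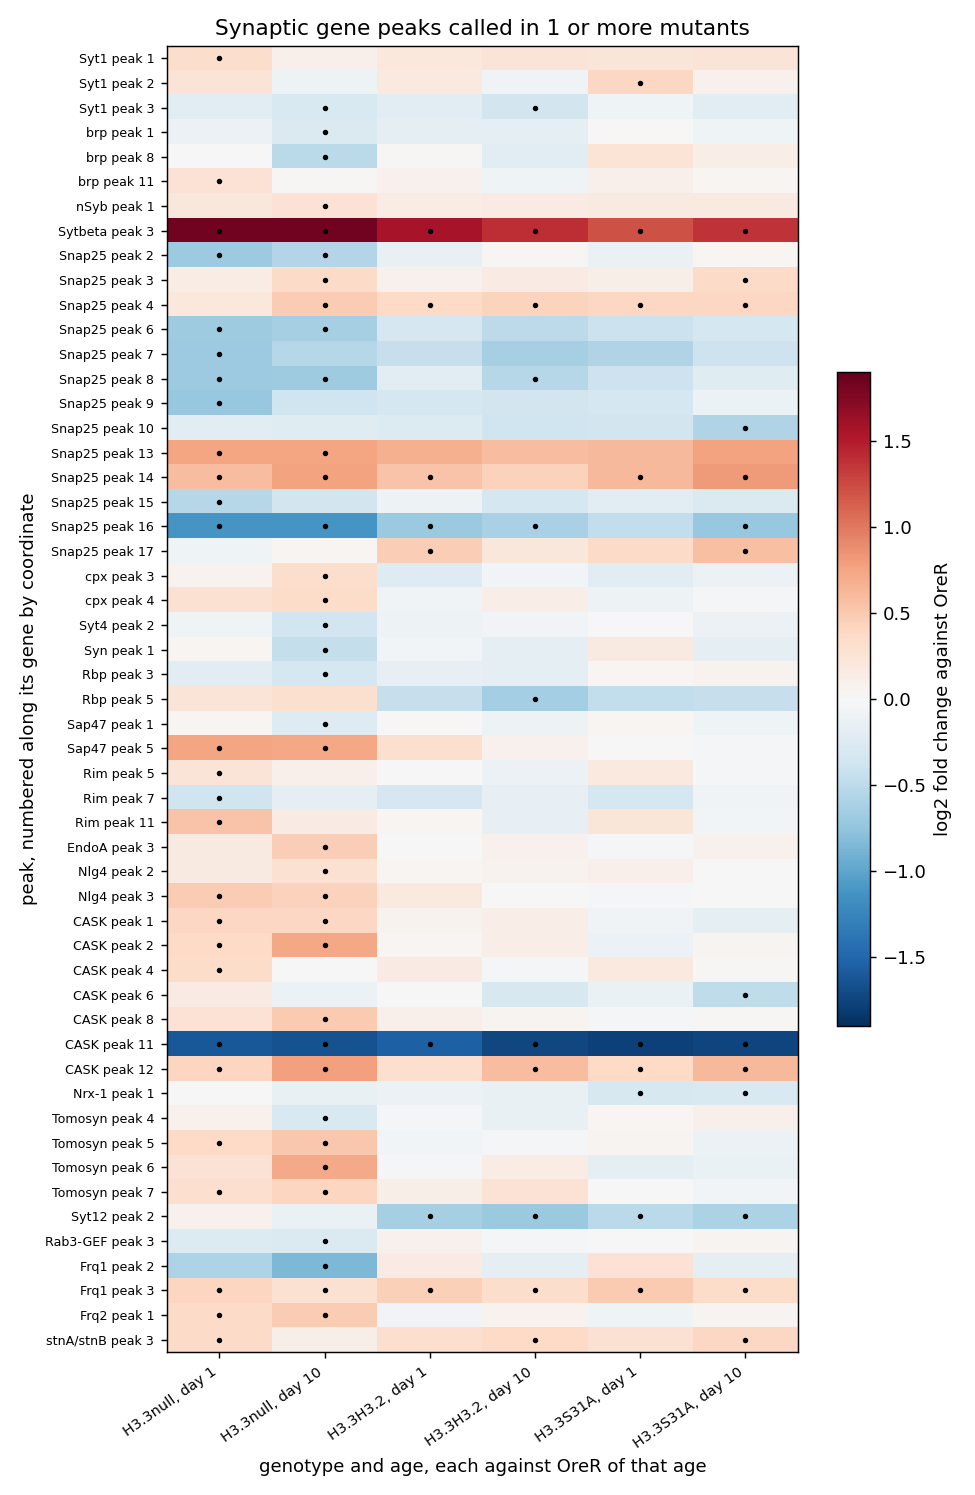
Log2 fold change against OreR of the same age (colour) for the 53 synaptic gene peaks called in 1 or more mutants, in 3 mutants at 2 ages, with a dot where the peak was called. The rows for Sytbeta peak 3, CASK peak 11 and Frq1 peak 3 carry a dot in all 6 columns, and most other dots stand in the H3.3null columns.

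Called in all 3 mutants at both ages in one direction were 3 of the 150 peaks, or 2.0%, against 4.6% of all peaks, and they lay in Sytbeta, CASK and Frq1. Sytbeta encodes a synaptotagmin family member, CASK a membrane-associated guanylate kinase scaffold, and Frq1 a frequenin, a neuronal calcium sensor. The Sytbeta peak at 3L 15048184 to 15048576, inside the gene, read 16.6, 23.2 and 25.1 CPM in the OreR libraries at day 1 and 16.7, 25.3 and 25.4 at day 10. In H3.3null it read 74.8, 74.6 and 85.0 CPM at day 1 and 84.8, 81.8 and 76.0 at day 10. Every H3.3null library thus lay above every OreR library. The H3.3H3.2 libraries read 56.3, 62.7 and 75.0 CPM at day 1 and 55.7, 58.1 and 65.9 at day 10, and those of H3.3S31A 68.0, 29.2 and 52.4 at day 1 and 66.6, 52.2 and 56.7 at day 10. These also lay above all OreR libraries, with 1 H3.3S31A library at day 1 close to them. Against OreR the log2 fold change was 1.84 ± 0.21 (adjusted p = 9.14e-08) at day 1 and 1.84 ± 0.20 (adjusted p = 7.45e-08) at day 10 in H3.3null. H3.3H3.2 gave 1.57 ± 0.21 then 1.41 ± 0.21, and H3.3S31A 1.21 ± 0.21 then 1.38 ± 0.21 (adjusted p at most 0.000146). H3.3S31A was itself lower than H3.3null at day 1, with -0.63 ± 0.18 (adjusted p = 0.0169), a call lost without H3.3null day 1 replicate 3 or H3.3S31A day 1 replicate 2 (log2 fold change -0.37 to -0.57, adjusted p = 0.0741 to 0.103) and in a fit of those groups alone (adjusted p = 0.17). At day 10 the value was -0.46 ± 0.18 (adjusted p = 0.0913).

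At CASK the change ran the other way. The peak at 3R 21814591 to 21815072, inside the gene, read 102, 109.5 and 92.1 CPM in OreR at day 1 and 116, 115 and 122 at day 10. The H3.3null libraries read 32.9, 31.9 and 34.4 CPM at day 1 and 34.8, 40.8 and 36.7 at day 10. H3.3H3.2 read 33, 21.5 and 49.8 CPM at day 1 and 37.9, 30.4 and 38.4 at day 10. All of those libraries were below the lowest OreR library. H3.3S31A read 27.4, 29.2 and 32.05 CPM at day 1 and 38.8, 33.9 and 32.04 at day 10, at the same low level. From day 1 to day 10 the log2 fold changes against OreR were -1.61 ± 0.16 then -1.65 ± 0.16 for H3.3null. H3.3H3.2 gave -1.55 ± 0.16 then -1.73 ± 0.15, and H3.3S31A -1.78 ± 0.16 then -1.75 ± 0.16, all with adjusted p at most 3.19e-09. Neither H3.3H3.2 nor H3.3S31A was called against H3.3null at either age; H3.3H3.2 against H3.3null gave 0.07 ± 0.17 (adjusted p = 0.873) at day 1.

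The neighbouring CASK peak, 42 bp away at 3R 21815115 to 21815545, was higher in the mutants. It read 44.2, 42.4 and 47.6 CPM in OreR at day 1 and 42.4, 43.5 and 37.9 at day 10, against 57.4, 64.2 and 55.9 at day 1 and 70.9, 72.1 and 69.1 at day 10 in H3.3null. The H3.3null libraries did not overlap those of OreR. H3.3H3.2 read 61.6, 51.1 and 54.0 at day 1 and 61.1, 67.9 and 57.1 at day 10, and H3.3S31A 53.0, 57.2 and 64.3 at day 1 and 54.3, 64.7 and 72.4 at day 10. At day 10 the log2 fold changes were 0.78 ± 0.12 (adjusted p = 2.36e-06) for H3.3null, 0.59 ± 0.12 (adjusted p = 0.000311) with H3.3H3.2 and 0.62 ± 0.12 (adjusted p = 0.000159) with H3.3S31A, and each held without any one library. At day 1 they were 0.40 ± 0.12 (adjusted p = 0.00908), 0.31 ± 0.12 (adjusted p = 0.0868) and 0.38 ± 0.12 (adjusted p = 0.0311), so H3.3H3.2 was not called. The day 1 call in H3.3null was lost without OreR day 1 replicate 2 or H3.3null day 1 replicate 2 (log2 fold change 0.34 to 0.36, adjusted p = 0.0514 to 0.0615), and that in H3.3S31A without OreR day 1 replicate 1, OreR day 1 replicate 2, H3.3S31A day 1 replicate 2 or H3.3S31A day 1 replicate 3 (log2 fold change 0.29 to 0.39, adjusted p = 0.0625 to 0.197) and in a fit of those groups alone (adjusted p = 0.0709). The first of the 2 peaks thus held 2.28 ± 0.32 times the counts of the second in OreR at day 1 and 2.87 ± 0.31 times at day 10 (SD, n = 3), and 0.51 to 0.63 times in the mutant groups. Their summed level was 146 ± 6.10 CPM in OreR at day 1 and 159 ± 1.05 at day 10 (SD, n = 3), against group means of 87.7 to 108 CPM in the mutants, a difference not tested on its own.

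The third such peak, in Frq1 at X 18158498 to 18159466, moved by less. OreR read 93.1, 83.5 and 89.3 CPM at day 1 and 90.0, 83.2 and 80.9 at day 10, and H3.3null 123, 117 and 113 at day 1 and 113, 101 and 98.6 at day 10. H3.3H3.2 read 118, 125 and 120.4 at day 1 and 103.97, 103.50 and 113 at day 10, and H3.3S31A 123, 124 and 129 at day 1 and 112, 106 and 105 at day 10. At each age all mutant libraries were above all OreR libraries. The log2 fold change was 0.41 ± 0.09 (adjusted p = 0.000294), 0.45 ± 0.08 (adjusted p = 0.000121) and 0.50 ± 0.09 (adjusted p = 3.1e-05) at day 1 for H3.3null, H3.3H3.2 and, last, H3.3S31A. At day 10 it was 0.29 ± 0.09 (adjusted p = 0.00985), 0.33 ± 0.09 (adjusted p = 0.00605) and 0.35 ± 0.09 (adjusted p = 0.00405). Of these 6 calls that in H3.3null at day 10 ended without OreR day 10 replicate 3 or H3.3null day 10 replicate 1 (log2 fold change 0.23 to 0.26, adjusted p = 0.0567 to 0.0727).

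**Figure D3:**
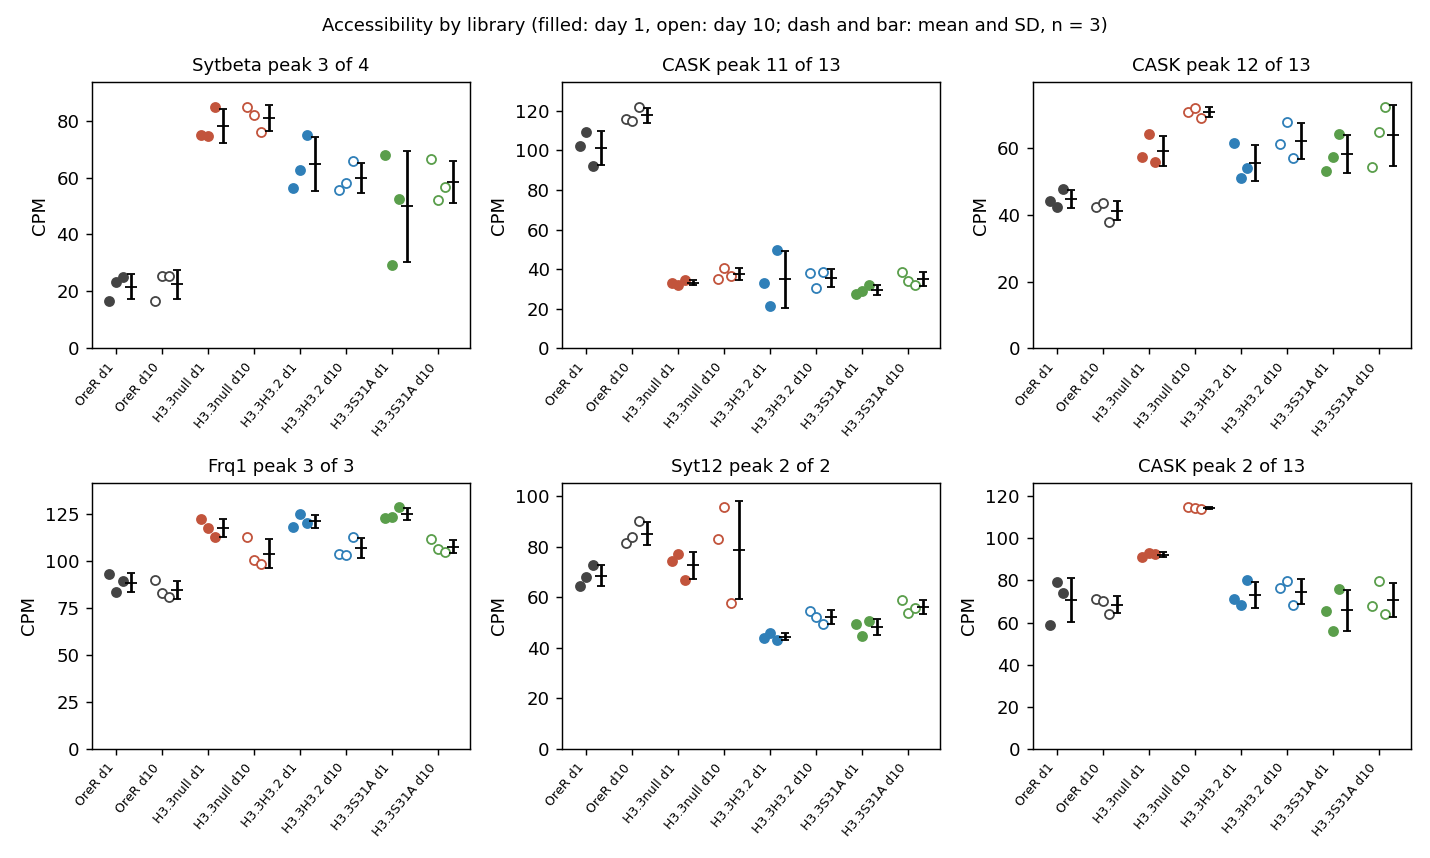
CPM of 6 synaptic gene peaks in each library (points, filled at day 1 and open at day 10), with the mean and SD of each group of 3 beside them. In Sytbeta peak 3, CASK peaks 11 and 12 and Frq1 peak 3 all mutant groups lie to one side of OreR, in Syt12 peak 2 H3.3H3.2 and H3.3S31A do, and in CASK peak 2 H3.3null does.

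Syt12, another synaptotagmin gene, had a peak called lower in H3.3H3.2 and H3.3S31A than in both OreR and H3.3null. That peak, at X 13358911 to 13359352, covers an end of the gene. OreR read 64.4, 68.0 and 72.8 CPM at day 1 and 81.3, 83.7 and 90.2 at day 10, and H3.3null 74.3, 77.0 and 66.6 at day 1 and 82.9, 95.7 and 57.7 at day 10. H3.3H3.2 read 43.9, 45.8 and 43.2 at day 1 and 54.7, 52.1 and 49.2 at day 10, and H3.3S31A 49.3, 44.4 and 50.4 at day 1 and 58.9, 53.6 and 55.7 at day 10. Both lay below all OreR libraries of their age, while H3.3null overlapped OreR. At day 10 the lowest H3.3null library, at 57.7 CPM, also lay below the highest of H3.3S31A, at 58.9. At day 1 H3.3H3.2 was -0.63 ± 0.12 (adjusted p = 0.000258) from OreR on the log2 scale and H3.3S31A -0.51 ± 0.12 (adjusted p = 0.0038). At day 10 the values were -0.71 ± 0.12 (adjusted p = 2.98e-05) and -0.60 ± 0.12 (adjusted p = 0.000355). H3.3null against OreR gave 0.09 ± 0.12 (adjusted p = 0.665) and -0.13 ± 0.12 (adjusted p = 0.479). Tested directly against H3.3null, H3.3H3.2 gave -0.71 ± 0.12 (adjusted p = 4.95e-05) at day 1 and -0.58 ± 0.12 (adjusted p = 0.000814) at day 10, and H3.3S31A -0.59 ± 0.12 (adjusted p = 0.000478) and -0.48 ± 0.12 (adjusted p = 0.00483). Of these 8 calls, that of H3.3S31A against H3.3null at day 10 was lost without H3.3null day 10 replicate 2 (log2 fold change -0.31, adjusted p = 0.0929), and the others held whichever single library was left out.

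At other peaks H3.3null stood above the remaining genotypes. In CASK the peak at 3R 21786327 to 21787192, near the lower-coordinate end of the gene, read 58.8, 79.2 and 74.2 CPM in OreR at day 1 and 71.3, 70.5 and 63.8 at day 10, and 91.0, 93.2 and 92.6 at day 1 and 115, 114 and 114 at day 10 in H3.3null. H3.3H3.2 read 71.1, 68.1 and 80.1 at day 1 and 76.5, 79.6 and 68.2 at day 10, and H3.3S31A 65.6, 55.9 and 75.8 at day 1 and 68.0, 79.8 and 64.1 at day 10. H3.3null stood above every library of the other genotypes at the same age. It was 0.74 ± 0.11 (adjusted p = 1.91e-06) from OreR at day 10 and 0.38 ± 0.11 (adjusted p = 0.00957) at day 1, the latter lost without OreR day 1 replicate 1 (log2 fold change 0.27, adjusted p = 0.0916). At day 10 H3.3H3.2 against H3.3null gave -0.61 ± 0.11 (adjusted p = 9.51e-05) and H3.3S31A -0.69 ± 0.11 (adjusted p = 1.14e-05).

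The flank of Sap47, which encodes a synapse-associated protein, held a peak at 3R 15962397 to 15962711 that overlaps only the neighbouring gene CG4287. It read 21.7, 24.7 and 25.4 CPM in OreR at day 1 and 24.7, 31.4 and 30.7 at day 10, and 39.7, 39.98 and 40.9 at day 1 and 49.3, 45.2 and 49.4 at day 10 in H3.3null. H3.3H3.2 read 27.1, 29.0 and 32.3 at day 1 and 35.8, 27.0 and 29.0 at day 10, and H3.3S31A 28.0, 22.4 and 21.6 at day 1 and 24.6, 35.9 and 24.03 at day 10. H3.3null against OreR gave 0.75 ± 0.15 (adjusted p = 0.000241) and 0.73 ± 0.15 (adjusted p = 0.000219). Neither other mutant was called against OreR, and both were lower than H3.3null at both ages. In those 4 tests the log2 fold change ran from -0.45 ± 0.15 to -0.75 ± 0.15, and the weakest call, H3.3H3.2 at day 1 (adjusted p = 0.0396), was lost without H3.3null day 1 replicate 1, H3.3null day 1 replicate 2, H3.3null day 1 replicate 3, H3.3H3.2 day 1 replicate 1 or H3.3H3.2 day 1 replicate 2 (log2 fold change -0.39 to -0.46, adjusted p = 0.0862 to 0.148).

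Tomosyn, whose product binds plasma membrane SNAREs and restrains priming, had 3 peaks at its higher-coordinate end that were higher in H3.3null at day 10. The peak at X 12651582 to 12652029 read 42.4, 46.7 and 30.7 CPM in OreR and 59.5, 58.8 and 76.6 in H3.3null, and 52.1, 45.9 and 33.5 and 33.5, 39.8 and 36.4 in H3.3H3.2 and H3.3S31A. H3.3null against OreR gave 0.72 ± 0.15 (adjusted p = 0.000462), and the neighbours at X 12649451 and 12653518 gave 0.51 ± 0.14 (adjusted p = 0.00409) and 0.41 ± 0.11 (adjusted p = 0.00432). The last overlaps only CkIalpha in the flank. All 3 calls held without any one library. H3.3S31A against H3.3null gave -0.84 ± 0.16 (adjusted p = 0.000125), -0.62 ± 0.14 (adjusted p = 0.000896) and -0.46 ± 0.11 (adjusted p = 0.00226) in the same peaks. A Tomosyn peak inside the gene near its lower-coordinate end, at X 12633904 to 12634527, ran the other way. It gave -0.29 ± 0.09 (adjusted p = 0.00896) in H3.3null against OreR at day 10, lost without H3.3null day 10 replicate 3 (log2 fold change -0.23, adjusted p = 0.0825). The peaks at X 12651582 and 12653518 were picked out after their values were seen. That at X 12633904 was named by its level, as the highest Tomosyn peak.

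Other genes of the release machinery gave calls in H3.3null at one age, and the Rim and EndoA peaks were picked out after their values were seen. Rim, the RIM scaffold, had a peak over a gene end at 3R 17916327 to 17917069 that read 112, 101 and 103.64 CPM in OreR and 173, 149 and 141 in H3.3null at day 1. The libraries did not overlap, and the log2 fold change was 0.55 ± 0.10 (adjusted p = 2.45e-05). At day 10 it was 0.16 ± 0.09 (adjusted p = 0.234), and the change of the H3.3null effect with age was -0.39 ± 0.13 (adjusted p = 0.392), so the ages were not shown to differ. H3.3H3.2 was lower than H3.3null there at day 1 (-0.50 ± 0.09, adjusted p = 0.000163). EndoA, the endophilin gene, had a gene-end peak at 3R 18910378 to 18910832 with 67.1, 65.1 and 69.8 CPM in OreR and 84.5, 100.4 and 94.6 in H3.3null at day 10. It gave 0.47 ± 0.11 (adjusted p = 0.00135) at day 10 and 0.17 ± 0.11 (adjusted p = 0.304) at day 1. In brp a peak inside the gene, at 2R 9519351 to 9519742, was lower in H3.3null at day 10, at 40.7, 56.1 and 47.3 CPM against 73.8, 63.8 and 67.0 in OreR, with -0.50 ± 0.12 (adjusted p = 0.00144). H3.3S31A against H3.3null gave 0.63 ± 0.12 (adjusted p = 0.000166) at the same age. The calls of these peaks in H3.3null held without any one library.

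Rbp encodes RIM-binding protein, and its flank holds a strong peak at 3R 15402606 to 15404376 that overlaps CG6125 and the antisense RNA gene asRNA:CR46058 and not Rbp itself. H3.3null and the other mutants differed there at day 10, with 337, 329.7 and 358 CPM in H3.3null against 159.7, 215 and 157 for H3.3H3.2 libraries and 122, 231 and 264 for those of H3.3S31A. OreR read 259.6, 290.5 and 278, below every H3.3null library and above every H3.3H3.2 library, and overlapped H3.3S31A. H3.3H3.2 against H3.3null gave -0.95 ± 0.19 (adjusted p = 0.00163) and H3.3S31A against H3.3null -0.74 ± 0.19 (adjusted p = 0.00874), and both held without any one library. The second was lost in a fit of those groups alone (adjusted p = 0.0623). H3.3H3.2 against OreR gave -0.64 ± 0.19 (adjusted p = 0.0333), lost without OreR day 10 replicate 1, OreR day 10 replicate 2, OreR day 10 replicate 3, H3.3H3.2 day 10 replicate 1 or H3.3H3.2 day 10 replicate 3 (log2 fold change -0.56 to -0.68, adjusted p = 0.0551 to 0.129). At Nrx-1, the neurexin gene, the gene-end peak at 3R 22468390 to 22469546 was called lower in H3.3S31A, with -0.30 ± 0.10 (adjusted p = 0.0449) at day 1. The day 10 value was -0.29 ± 0.10 (adjusted p = 0.05). Both calls sat near the threshold. The first was lost without OreR day 1 replicate 1, H3.3S31A day 1 replicate 1, H3.3S31A day 1 replicate 2 or H3.3S31A day 1 replicate 3 (log2 fold change -0.20 to -0.32, adjusted p = 0.07 to 0.242), and the second without OreR day 10 replicate 1, OreR day 10 replicate 2, OreR day 10 replicate 3, H3.3S31A day 10 replicate 1 or H3.3S31A day 10 replicate 2 (log2 fold change -0.25 to -0.30, adjusted p = 0.0903 to 0.189).

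Snap25 spans 225026 bp at the pericentromeric end of 3L and held the most peaks and the most calls of any gene, in mixed directions. In H3.3null 2 of its 17 peaks were higher and 7 lower at day 1, and 4 were higher and 4 lower at day 10. Of all peaks, 24.7% and 24.5% were called in these comparisons. H3.3H3.2 had 3 higher and 1 lower at day 1 and 1 higher and 2 lower at day 10, beside 11.1% and 10.7% of all peaks. H3.3S31A had 2 higher and 0 lower, then 4 higher and 2 lower, beside 10.5% and 10.2%. Of the lower peaks the one at 3L 24265663 to 24266140 moved most. It read 48.7, 57.1 and 51.0 CPM in OreR and 23.0, 26.7 and 22.4 in H3.3null at day 1. At day 10 it read 61.1, 62.9 and 54.1 in OreR against 34.8, 19.8 and 27.6 in H3.3null, with no overlap at either age. The log2 fold changes were -1.12 ± 0.21 (adjusted p = 0.000143) and -1.11 ± 0.21 (adjusted p = 0.000133). In H3.3H3.2 they were -0.71 ± 0.20 (adjusted p = 0.0168) and -0.62 ± 0.20 (adjusted p = 0.0378), the first lost without OreR day 1 replicate 2, H3.3H3.2 day 1 replicate 2 or H3.3H3.2 day 1 replicate 3 (log2 fold change -0.53 to -0.66, adjusted p = 0.0744 to 0.117) and the second without OreR day 10 replicate 1, OreR day 10 replicate 2, OreR day 10 replicate 3, H3.3H3.2 day 10 replicate 1 or H3.3H3.2 day 10 replicate 3 (log2 fold change -0.46 to -0.69, adjusted p = 0.0514 to 0.212). The higher peak at 3L 24218966 to 24219294 read 19.2, 24.8 and 23.4 CPM in the OreR libraries of day 10. H3.3null read 39.8, 37.5 and 37.98 and H3.3S31A 32.6, 41.1 and 45.1. Both mutants lay above OreR, with 0.77 ± 0.15 (adjusted p = 0.000174) and 0.81 ± 0.15 (adjusted p = 0.000156). Both were called higher there at day 1 as well, and the calls at both ages held without any one library.

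The Snap25 peak at 3L 24093982 to 24094545 was low in H3.3null and not in the other mutants. It read 53.5, 80.1 and 79.0 CPM in OreR and 38.2, 44.9 and 48.5 in H3.3null at day 1. The H3.3H3.2 libraries read 61.6, 64.6 and 66.9 and those of H3.3S31A 61.7, 63.5 and 71.1. H3.3null was below all other libraries of that age. Against OreR it gave -0.69 ± 0.15 (adjusted p = 0.000357), and H3.3S31A against H3.3null gave 0.57 ± 0.15 (adjusted p = 0.00489). At day 10 the same tests gave -0.56 ± 0.15 (adjusted p = 0.00408) and 0.59 ± 0.15 (adjusted p = 0.00398). Without Snap25 the calls against OreR fell to 4 in H3.3H3.2 at day 1 and to 8 in H3.3S31A at day 10, a count made after its values were seen.

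**Figure D4:**
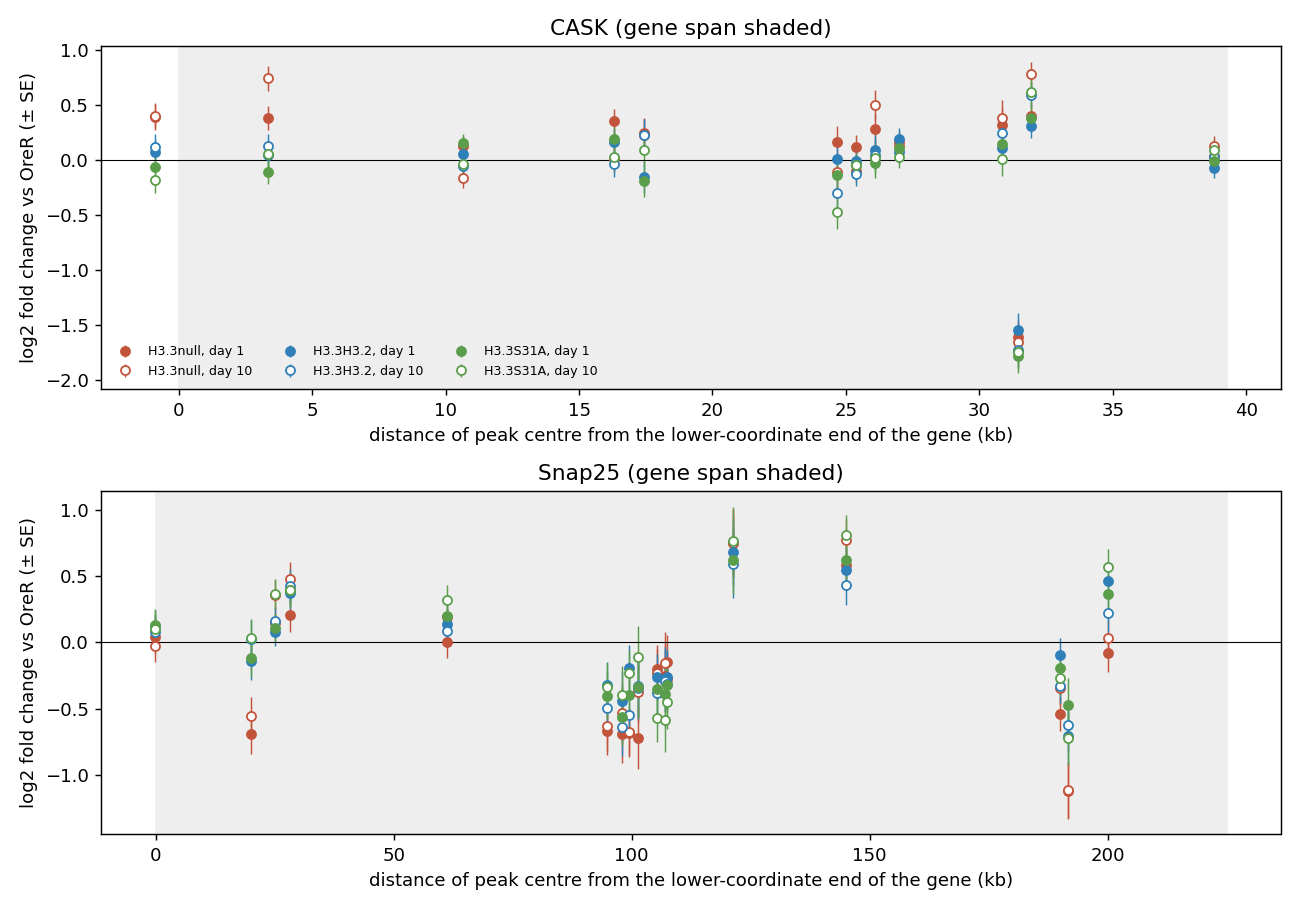
Log2 fold change against OreR of the same age (± SE, 3 libraries a group) for the peaks of CASK and Snap25, placed by the distance of the peak centre from the lower-coordinate end of the gene, with the gene span shaded. CASK peak 11 lies between -1.78 and -1.55 in all mutants beside a neighbour between 0.31 and 0.78, and Snap25 holds both higher and lower peaks along its length.

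Age moved few of these peaks. Between day 1 and day 10, 3 of the 150 were called in OreR (2.0% against 1.91% of all peaks) and 1 in H3.3null (0.667% against 0.924%). In OreR 2 were higher and 1 lower, beside 0.718% and 1.19% of all peaks, and that in H3.3null was higher, beside 0.386%. None was called in H3.3H3.2 (against 0.61%) or in H3.3S31A (against 0.987%) by edgeR or by DESeq2, where 12 and 8 peaks had an unadjusted p under 0.05 by edgeR. In OreR the peak inside Syt1, the main calcium sensor for release, at 2L 2798912 to 2799278 went from 54.6, 59.0 and 74.9 CPM to 99.5, 78.1 and 96.8. The log2 change was 0.54 ± 0.12 (adjusted p = 0.0129), lost without OreR day 10 replicate 1, OreR day 10 replicate 3, OreR day 1 replicate 1 or OreR day 1 replicate 2 (log2 fold change 0.45 to 0.49, adjusted p = 0.0809 to 0.119). The peak in nSyb, the vesicle SNARE synaptobrevin, at 3L 1636582 to 1637309 went from 121, 115 and 127 to 155, 138 and 159, by 0.31 ± 0.08 (adjusted p = 0.0397), and was lost without OreR day 10 replicate 1, OreR day 10 replicate 3, OreR day 1 replicate 1 or OreR day 1 replicate 2 (log2 fold change 0.27 to 0.32, adjusted p = 0.092 to 0.209). The Nrx-1 peak at 3R 22476329 to 22477108 went from 103.82, 93.2 and 98.4 to 72.3, 84.5 and 68.4, by -0.39 ± 0.10 (adjusted p = 0.0257), lost without OreR day 10 replicate 1, OreR day 10 replicate 3, OreR day 1 replicate 1 or OreR day 1 replicate 3 (log2 fold change -0.33 to -0.39, adjusted p = 0.0637 to 0.18). In H3.3null the Tomosyn peak at X 12649451 went from 40.2, 39.3 and 43.4 to 54.3, 60.3 and 62.7, by 0.53 ± 0.13 (adjusted p = 0.0441), and lost its call without any one of the 6 libraries. None of these 4 changes held whichever library was left out. The effect of age differed between a mutant and OreR at 0 of the 150 peaks in each of the 3 interaction tests, as at 0.0% of all peaks, by edgeR and by DESeq2. There 14, 0 and 1 peaks had an unadjusted p under 0.05 by edgeR, for H3.3null, H3.3H3.2 and, last, H3.3S31A.

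The Sytbeta peak that was set apart lies inside the gene at 3L 15035824 to 15036279. It held 176, 204 and 209 counts in the OreR libraries at day 1 and 237, 214 and 262 at day 10, and 296, 287 and 305 at day 1 and 206, 220 and 309 at day 10 in H3.3null. In H3.3H3.2 it held 147, 163 and 0 at day 1 and 241, 202 and 158 at day 10. A single library, H3.3H3.2 day 1 replicate 3, thus held no count, which allows a level of up to 0.659 CPM (3 counts, counting error only). In H3.3S31A it held 61, 193 and 153 counts and 41, 140 and 142, with the lowest library of each age at 61 and 41. The neighbouring Sytbeta peak 152 bp away, at 3L 15035294 to 15035671, held 180 to 296 counts in all 24 libraries, those low ones included. At the neighbour the 3 low libraries read 44.3, 48.9 and 44.0 CPM, near the low end of the 43.9 to 69.1 CPM of the others. In the whole data set 6 peaks held a 0 in 1 or more libraries.

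No mutant was called against OreR at the peak set apart. The log2 fold change at day 1 was 0.49 ± 0.56 (adjusted p = 0.588) for H3.3null, -1.18 ± 0.62 (adjusted p = 0.317) with H3.3H3.2 and -0.54 ± 0.60 (adjusted p = 0.741) with H3.3S31A. At day 10 it was 0.17 ± 0.56 (adjusted p = 0.866), -0.30 ± 0.57 (adjusted p = 0.848) and -1.01 ± 0.61 (adjusted p = 0.446). In a fit of the compared groups alone H3.3null at day 1 was called (adjusted p = 0.00204). Without the library at 0 the value in H3.3H3.2 at day 1 was -0.61 (adjusted p = 0.574). Without the lowest library, the value in H3.3S31A was -0.13 at day 1 and -0.56 at day 10. By Pearson's r over the 24 libraries on a log2 CPM scale, the synaptic peaks most like it were the cpx peak at 3R 4289375 (0.60), its neighbour in Sytbeta (0.57) and the Syt12 peak at X 13358911 (0.49), a description of libraries that share genotype and depth. The Snap25 peak at 3L 24273826 gave -0.49. The library at 0 and the low H3.3S31A libraries can weigh heavily on r, which was not recomputed without them.

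**Figure D5:**
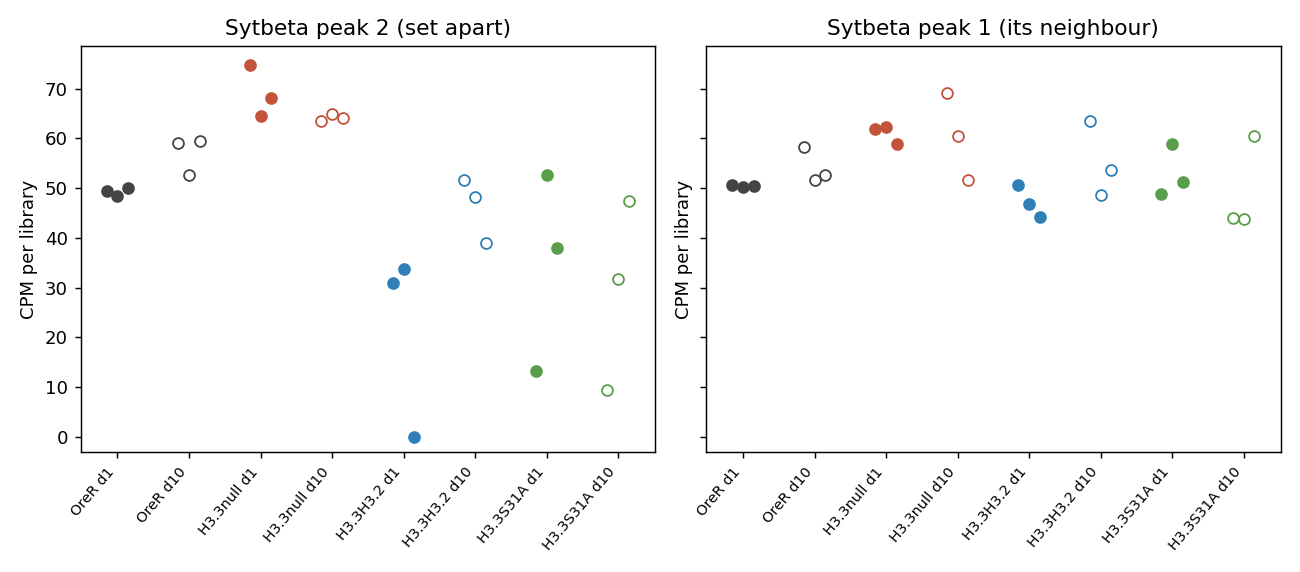
CPM in each library (points, filled at day 1 and open at day 10) at the Sytbeta peak set apart and at its neighbour 152 bp away. The H3.3H3.2 day 1 library at 0 and the H3.3S31A libraries with 61 and 41 counts stand apart in the left panel and lie within the range of the others in the right one.

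Among 28 further genes of the same pathways, 23 had a total of 56 peaks. In H3.3null 6 of these were higher and 3 lower at day 1, or 16.1% called against 24.7% of all peaks, and 5 higher and 6 lower at day 10, or 19.6% against 24.5%. In H3.3H3.2 1 was higher and 2 lower at day 1 (5.36%, against 11.1%), and 2 were higher and 2 lower at day 10 (7.14%, against 10.7%). In H3.3S31A 1 was higher and 1 lower at day 1 (3.57%, against 10.5%), and 0 higher and 2 lower at day 10 (3.57%, against 10.2%). 1 peak was called in all 6, at stj, which encodes the alpha2delta subunit of neuronal calcium channels, at 2R 13805747 to 13806692. It was lower, with -0.50 ± 0.10 (adjusted p = 0.000157) for H3.3null at day 1, -0.46 ± 0.10 (adjusted p = 0.000631) with H3.3H3.2 and -0.54 ± 0.10 (adjusted p = 0.000107) with H3.3S31A, and held without any one library in all 6 comparisons. Cadps encodes CAPS, a factor for dense core vesicle release. Its peak at 4 1272197 to 1272526 was higher in H3.3null, by 0.77 ± 0.15 (adjusted p = 0.000185) at day 1 and 0.89 ± 0.16 (adjusted p = 3.31e-05) at day 10. H3.3H3.2 was called at day 10 too, with 0.76 ± 0.16 (adjusted p = 0.000506). Its day 1 call (0.52, adjusted p = 0.021) was lost without OreR day 1 replicate 1 or H3.3H3.2 day 1 replicate 2 (0.41 in each case, adjusted p = 0.12 and 0.167). H3.3S31A gave 0.29 ± 0.16 (adjusted p = 0.38) there at day 10. nwk encodes an F-BAR adaptor of endocytic membranes, and its peak at 3L 9140899 to 9141486 was higher in H3.3null at day 10 (1.08 ± 0.14, adjusted p = 1.98e-07) and not called at day 1 (0.15 ± 0.14, adjusted p = 0.511). The change with age itself was 0.72 ± 0.14 (adjusted p = 0.00428) in H3.3null, lost without H3.3null day 1 replicate 2 (log2 fold change 0.66, adjusted p = 0.0613), and its difference from that in OreR was 0.93 ± 0.20 (adjusted p = 0.0957), not called. Dap160, the intersectin scaffold, had a peak at 2L 21134677 that was higher in H3.3null by 0.61 ± 0.12 (adjusted p = 0.000158) and 0.56 ± 0.12 (adjusted p = 0.000364) at the respective ages.

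On chromosome arm 2R, none of the 15 synaptic peaks, 11 of them at brp, was called in H3.3H3.2 or H3.3S31A at either age. Of all 2R peaks, 15.2% to 16.3% were higher there and 3.35% to 4.22% lower. In H3.3null 1 of the 15 was higher and 0 lower at day 1, beside 21.6% and 8.52%. At day 10 there were 0 and 2, beside 24.04% and 6.91%. Of the 29 synaptic peaks on 3L, H3.3H3.2 had 4 higher and 1 lower at day 1, then 2 and 2. H3.3S31A had 3 and 0, then 5 and 2. Snap25 alone held 17 of the 29 peaks. It gave 3 higher and 1 lower, then 1 and 2, in H3.3H3.2. In H3.3S31A it gave 2 and 0, then 4 and 2. The remaining 3L call in each of these comparisons was the higher Sytbeta peak at 3L 15048184. Of all 3L peaks, 4.45% to 4.92% were higher and 4.10% to 4.92% lower in these comparisons. None of these differences was tested.

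Grouped by role, the 50 peaks of SNARE genes and fusion regulators had 6 higher and 7 lower in H3.3null at day 1, or 26.0% called, against 24.7% of all peaks. The 53 active zone peaks had 8 higher and 2 lower (18.9%), the 11 synaptotagmin peaks 2 and 0 (18.2%), the 15 endocytosis peaks 1 and 0 (6.67%), and the 21 adhesion peaks 1 and 0 (4.76%), all below that share. At day 10, beside 24.5% of all peaks, SNARE genes and regulators had 12 higher and 6 lower (36.0%), active zone genes 5 and 6 (20.8%), synaptotagmins 1 and 2 (27.3%), endocytosis genes 1 and 1 (13.3%), and adhesion genes 2 and 0 (9.52%). Of the SNARE and regulator calls, 9 at day 1 and 8 at day 10 were at Snap25. In H3.3H3.2 no adhesion peak was called at either age, beside 11.1% then 10.7% of all peaks. H3.3S31A had 1 of the 21 lower at both ages, at Nrx-1 (4.76%, against 10.5% then 10.2%). The 11 synaptotagmin peaks lay above those shares, with 18.2% then 27.3% called for H3.3H3.2 and 27.3% then 18.2% for H3.3S31A. These shares rest on few calls, 1 higher and 1 lower, then 1 and 2, for H3.3H3.2. For H3.3S31A they were 2 and 1, then 1 and 1. The Sytbeta peak at 3L 15048184 and the Syt12 peak at X 13358911 were among the calls each time. SNARE genes and regulators had 4 higher and 1 lower, then 2 and 2, for H3.3H3.2. For H3.3S31A they had 3 and 0, then 5 and 2. Active zone and endocytosis shares were at most 6.67% with both mutants. These shares were not tested. Against H3.3null, 10.7% of the synaptic peaks were called in H3.3H3.2 at day 1 and 10.0% at day 10, against 11.4% and 10.7% of all peaks. The 6 higher and 10 lower at day 1 stand beside 4.91% and 6.44% of all peaks, and the 2 higher and 13 lower at day 10 beside 3.64% and 7.05%. In H3.3S31A 16.0% were called at each age, against 16.3% and 16.4%. The 9 higher and 15 lower at day 1 stand beside 6.75% and 9.6% of all peaks, and the 8 higher and 16 lower at day 10 beside 5.67% and 10.8%. Few of the H3.3H3.2 calls held without any one library, 2 of 16 at day 1 and 4 of 15 at day 10, against 6 of 24 and 12 of 24 for H3.3S31A.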

How the data were processed

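ATAC-seq libraries of adult female Drosophila brains were analysed from 1 table of raw counts per peak that the authors deposited, with 11145 peaks and 24 libraries. The submitters' processing notes name, with no role or order, build dm6, STAR 2.7.7a, SAMtools 1.9, bedtools 2.26, deepTools 3.2.0, featureCounts of Subread 2.0.1 and DESeq2 1.34.0. The peak caller, the handling of duplicates and any shift of reads for the transposase are not given in the sources used here. The labels' extraction text describes RNA isolation, while the molecule is given as genomic DNA, so the preparation is uncertain. Groups came from the labels' genotype and age.

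Counts were scaled by TMM (factors 0.970 to 1.02), filtered with filterByExpr, which removed 0 peaks, and fitted over all 8 groups with edgeR 4.0.16 (limma 3.58.1, R 4.3.3; quasi-likelihood test, Benjamini-Hochberg adjustment over all peaks, 16 residual degrees of freedom). CPM values were computed here from the TMM-scaled counts. Totals of 3021672 to 4890579 counts per library gave a median count of 295 per synaptic peak and library and a median standard error of 0.115 on the log2 scale; intervals and floors cover counting error only. Joins and figures used Python 3.11.15. Tested on simulated data for H3.3null against OreR at day 1 (11145 peaks), the fit recovered 76.1% of peaks changed by 0.5 on the log2 scale and 100% of those changed by 1 or 2, with 9 false calls. Only 200 peaks were changed in that simulation, whereas 24.7% of all peaks were called in the data. The adjustment over all peaks depends on that share, so these rates need not carry over.

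The members and gene lists were chosen with earlier results of these data known. Named peaks were the strongest non-overlapping call in each direction and comparison, each gene's highest peak, peaks called in all 3 mutants at both ages, age calls, the Sytbeta peak set apart and the 5 largest called changes per mutant and age; others are marked as picked out later. Alternatives were RLE size factors, DESeq2 1.42.0, no filter, a fit of the compared groups alone, a replicate block, gene bodies without flanks and leaving out each library. Replicate numbers occur in every group but do not pair the libraries: in 0 of 14 comparisons did all same-numbered libraries deviate together (r from -0.39 to 0.35).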

Additional observations from a re-analysis of the deposited data

How the results depend on the processing

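The counts of called synaptic peaks against OreR and against H3.3null stayed within 1.5 times their reported values under RLE size factors, DESeq2, no filter, and gene bodies without flanks. The exceptions among the other settings were the following. A fit of the compared groups alone gave 18 calls in H3.3H3.2 at day 10, 1 age call in OreR and 2 in H3.3null. DESeq2 gave 3 age calls in H3.3null. Without the 17 Snap25 peaks, an alternative chosen after seeing the data, 4 calls were left in H3.3H3.2 at day 1 and 8 in H3.3S31A at day 10. The cause of these changes was not tested, beyond the fewer peaks in the last.

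With the replicate number as a block, though the numbers do not pair the libraries, the calls against OreR were 30, 8 and 10 at day 1 and 37, 12 and 14 at day 10 for H3.3null, H3.3H3.2 and, last, H3.3S31A. Against H3.3null they were 17 and 24 at day 1 and 13 and 25 at day 10, and the age calls were 3 in OreR, 1 in H3.3null and 0 in the others.

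When each library was left out in turn, the calls against OreR at day 1 ranged from 16 to 25 in H3.3null, from 5 to 9 for H3.3H3.2 and from 6 to 9 for H3.3S31A. At day 10 they ranged from 26 to 36, from 5 to 9 and from 8 to 13. Against H3.3null they ranged from 5 to 9 and from 12 to 16 at day 1 and from 7 to 12 and from 16 to 24 at day 10 in H3.3H3.2 and H3.3S31A. Age calls ranged from 0 to 3 in OreR and were 0 in H3.3null. Single libraries moved several counts by over 1.5 times. Against OreR these were OreR day 1 replicate 2 (16) and H3.3null day 1 replicate 3 (17) for H3.3null at day 1, and OreR day 1 replicate 2 (5) for H3.3H3.2 at day 1. At day 10 they were each OreR library (7, 6 and 7) and H3.3H3.2 replicates 1 and 3 (7 and 5) for H3.3H3.2, and each OreR library (9, 9 and 8) for H3.3S31A. Against H3.3null they were all 6 libraries for H3.3H3.2 at day 1 (5 to 9), and H3.3null replicate 2 (8) and H3.3H3.2 replicates 2 and 3 (7 and 7) at day 10. For H3.3S31A at day 1 they were H3.3null replicates 1 and 3 (14 and 12) and H3.3S31A replicate 2 (13). The OreR age count fell to 0 without day 10 replicate 1 or 3 or day 1 replicate 1 and to 1 without day 1 replicate 2, and that of H3.3null to 0 without any of its 6 libraries. By the simulation, in which few peaks were changed, changes under about 0.5 on the log2 scale were near the limit of this depth and number of libraries. Smaller changes were called at some peaks in the data.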
